A study of Sus scrofa with 19 samples.

Results

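The dystrophin-glycoprotein complex was followed as a set of 7 listed genes (DMD, UTRN, DAG1, SGCA, SGCB, SGCD and DTNA) in RNA-seq of left ventricular (LV) myocardium from 19 pigs. The members were found by gene symbol in the annotated expression table deposited with the data and traced by Ensembl identifier to the raw counts, which hold 25879 genes. Counts were found for 6 of the 7 members. SGCB (beta-sarcoglycan) had no row under its symbol in that table, so no value is given for it. All 6 matched members passed the filter on low counts, which 13552 genes passed in all.

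The pigs were described as female large whites, with 1 library per pig. The DOX group (n = 5) received doxorubicin and the MYO group (n = 5) Myocet, a liposomal form of the same anthracycline, each in 3 cycles of 60 mg/m2, and anterior wall was sampled after 3 months. In the RemoLV group (n = 3) the left anterior descending coronary artery was occluded by a balloon for 90 min and reperfused, and remote posterior wall was sampled at 6 months. The Hyper group (n = 3) carried a stent in the descending aorta that became a stenosis of the isthmus as the animals grew and loaded the ventricle with pressure, with anterior wall sampled at 6 months. Anterior wall of the Control group (n = 3), described as sham-operated in the sample records and as untreated in the methods of the study, was also sampled at 6 months. The DOX and MYO libraries came from an earlier experiment, so drug, follow-up time and experiment cannot be told apart in them.

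Library totals ranged from 9527710 to 20370209 counts, and every member had between 464 and 5048 counts in each library. Some libraries went against their labels. The 3 libraries labelled RemoLV held MYL2, the ventricular regulatory myosin light chain, at 18.6 to 115 CPM (counts scaled to a common library size) against at least 8975 CPM in the other groups, and MYL4, the atrial essential light chain, at 6029 to 8130 CPM against at most 21.9 CPM elsewhere. DDX3Y, a Y-chromosome gene, stood at 96.1 to 177 CPM in the DOX and MYO libraries and had at most 2 counts in each of the other 9. EIF1AY, also on the Y chromosome, was split likewise, at 41.6 to 52.7 CPM against at most 1 count. Sex read from these genes thus followed the anthracycline set. It cannot be told apart there from drug, follow-up time and experiment. Control replicate 2 also stood apart: the mean chi-square per gene between its counts and those of Hyper replicate 1 was 12, the lowest of 171 pairs of libraries, against 101 and 128 to the other Control libraries, which were at 14.7 from each other. In 8 of 19 columns the expression table named another group than the count file with the same values: the 3 RemoLV and the 3 Control libraries were exchanged, as were DOX replicate 5 and MYO replicate 1. Groups are named here by the count files. Because both namings leave 3 sets of libraries intact (the 10 DOX and MYO libraries, the 3 labelled RemoLV, and the 6 Hyper and Control libraries), comparisons between these sets are given first, and those that depend on the naming are given under both.

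Dystrophin, encoded by DMD, is a long rod that ties cortical actin to the plasma membrane of muscle cells. At the membrane it binds dystroglycan, made from DAG1, which reaches laminin and other matrix ligands outside the cell, while the sarcoglycans steady this link and the dystrobrevins and syntrophins form a signalling platform on the inside. Utrophin (UTRN) is a close relative of dystrophin, found at neuromuscular junctions and in vessels and other tissues, and loss of the complex from heart muscle is known to lead to dilated cardiomyopathy.

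The members differ widely in gene size, which bears on how their levels can be read. In the RefSeq annotation of Sscrofa11.1, DMD (ENSSSCG00000028148) lies on the reverse strand at chrX:27028223-29650728 and has 22 transcripts with 13 start positions. UTRN (ENSSSCG00000004123) lies at chr1:20514264-21047927 on the reverse strand, SGCD (ENSSSCG00000017063) at chr16:66447982-67481709 on the reverse strand, DAG1 (ENSSSCG00000034357) at chr13:32028019-32092450 on the forward strand, SGCA (ENSSSCG00000017583) at chr12:26356691-26368561 on the forward strand and DTNA (ENSSSCG00000028047) at chr6:118333069-118753516 on the forward strand. The counts were made per gene and do not show which start was used. DMD, SGCD and DTNA were lower together in both of the first comparisons below, and the 250 bases before 1 start of DMD and of DTNA, which differed most, are shown so that their upstream sequence can be seen. For each gene it is the start shared by most transcripts whose window holds no annotated exon (the most upstream where starts tied), printed 5′ to 3′ on the strand of the gene. Capitals mark matches on either strand to the E-box (CANNTG), the letters bound by many muscle transcription factors, and to the M-CAT motif (CATTCC), bound by TEAD factors.

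DMD, chrX:29650729-29650978, reverse strand, a start of 3 of 22 transcripts: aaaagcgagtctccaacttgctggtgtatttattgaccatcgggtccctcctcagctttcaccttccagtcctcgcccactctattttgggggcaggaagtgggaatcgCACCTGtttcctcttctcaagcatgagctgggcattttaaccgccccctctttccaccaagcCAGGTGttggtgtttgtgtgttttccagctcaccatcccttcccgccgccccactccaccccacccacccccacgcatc

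DTNA, chr6:118453051-118453300, forward strand, a start of 25 of 37 transcripts: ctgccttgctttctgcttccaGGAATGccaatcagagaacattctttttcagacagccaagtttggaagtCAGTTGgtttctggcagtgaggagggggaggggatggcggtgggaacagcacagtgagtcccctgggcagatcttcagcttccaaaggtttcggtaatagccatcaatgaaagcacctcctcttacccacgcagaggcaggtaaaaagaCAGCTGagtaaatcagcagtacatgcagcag

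The window of DMD held 2 E-boxes and no M-CAT motif, that of DTNA held 2 E-boxes and 1 M-CAT motif, and no matches overlapped. Windows chosen in the same way for UTRN, DAG1 and SGCA, which were not lower in both comparisons, held 3, 6 and 1 E-boxes and no M-CAT motif. Among 16456 windows chosen in the same way across the annotation, 63.5% held an E-box and 10.5% an M-CAT motif. G and C made up 56% of the DMD window and 50.8% of the DTNA window. These matches are letters in a window and not sites shown to be bound.

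Per kilobase of annotated exon, SGCA was the most abundant member, at 59.1 CPM per kb as a mean over all libraries, followed by DAG1 at 32.4. This order held in all 19 libraries. The means of DMD (9.46 CPM per kb), DTNA (9.13), SGCD (5.80) and UTRN (4.83) followed, but only in 11 of 19 libraries was DMD next after DAG1, and UTRN was the lowest member in 16 of 19 libraries. The order below DAG1 depends on the length used, here all RefSeq exons joined, while counts were made on Ensembl models. This length was 20.99 kb for UTRN and 11.62 kb for DTNA, against longest transcripts of 13.59 and 7.25 kb. DMD varied most among the 6 members, over a range of 1.69 on the log2 scale across the libraries, while SGCA spanned 0.58. The median gene spanned 1.43.

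**Figure D1:**
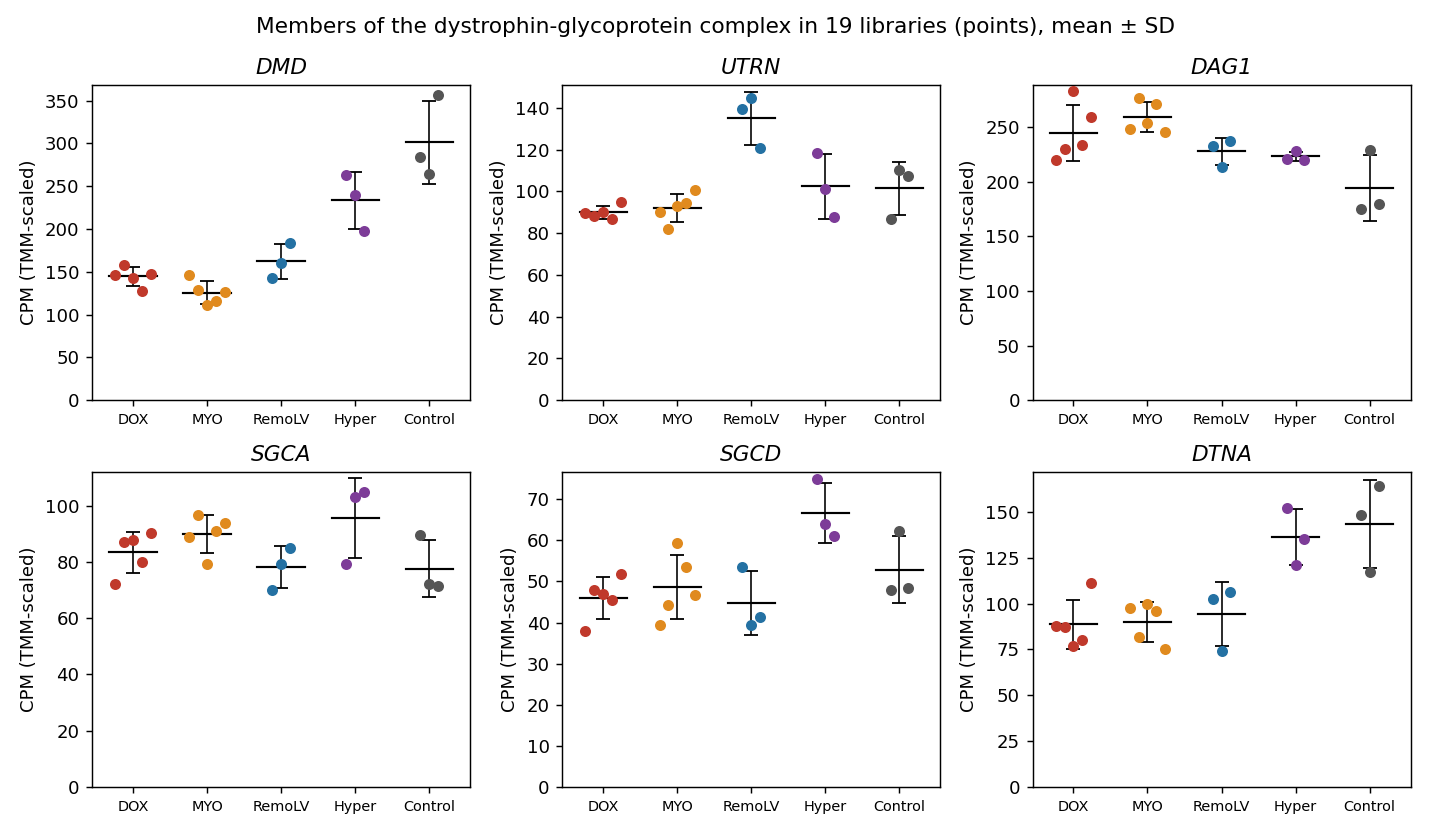
CPM scaled by trimmed mean of M-values (TMM) of the 6 members with counts, 1 point per library, with the mean (line) and SD (bars) of each group named by the count files. DMD in the Hyper and Control libraries (197 to 356 CPM) lay above every other library, and UTRN was highest in the 3 libraries labelled RemoLV (121 to 145 CPM).

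DMD, the gene of dystrophin itself, was lowest in the anthracycline libraries. The DOX libraries held 146, 158, 143, 128 and 148 CPM and the MYO libraries 146, 129, 111, 116 and 126 CPM. The Control libraries held 284, 264 and 356 CPM, the Hyper libraries 263, 240.1 and 197 CPM, and the libraries labelled RemoLV 143, 160.2 and 184 CPM. All 10 anthracycline libraries and all 3 labelled RemoLV therefore lay below all 6 Hyper and Control libraries, whereas the RemoLV libraries overlapped those of DOX. DMD was lower in DOX and MYO than in Hyper and Control at 0.508 times their level (log2 fold change -0.98 ± 0.09 SE, Benjamini-Hochberg adjusted p = 8.86e-08 by the edgeR quasi-likelihood test, as throughout). The libraries labelled RemoLV were at 0.612 times the Hyper and Control level (-0.71 ± 0.12, adjusted p = 0.00015), a difference that kept its sign but lost its call when libraries were scaled by total counts only (-0.27, adjusted p = 0.0693). The anthracycline difference was -0.62 under that scaling (adjusted p = 9.75e-06).

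These values are relative to all genes, and in bulk tissue fewer cells of a type and less RNA per cell cannot be told apart. The summed level of the 8 matched of 10 cardiomyocyte markers shared by atrium and ventricle, of which none was at or below 3 counts throughout, was 27367 to 37256 CPM in DOX, 29012 to 34466 CPM in MYO, 27828 to 29558 CPM in RemoLV, 33434 to 37972 CPM in Hyper and 30462 to 40452 CPM in Control. Divided by this sum, DMD was 3.38 to 5.13 CPM per 1000 CPM of markers in the DOX and MYO libraries and 5.19 to 9.07 in the Hyper and Control libraries, without overlap. The libraries labelled RemoLV had ratios of 5.13 to 6.51, which overlapped those of Hyper and Control. The markers did not move together in any of the 3 models. In RemoLV only ACTC1 was higher than Control without overlap, at 8868 to 9809 CPM against 1056 to 2927 CPM. TNNC1 was lower, at 2319 to 2953 CPM against 5149 to 7059 CPM. TNNT2, MYBPC3, RYR2, ACTN2 and LDB3 were likewise below every Control library in RemoLV, and CASQ2 overlapped. In DOX and MYO MYBPC3 was at 5928 to 7517 CPM against 4928 to 5915 CPM in Hyper and Control. TNNC1 was lower without overlap, at 4317 to 5066 CPM against 5149 to 7059 CPM. TNNT2 ran lower with overlap, at 7371 to 10542 CPM against 10037 to 14524 CPM. ACTC1 overlapped, at 2107 to 8121 CPM against 1056 to 4853 CPM, as did RYR2, ACTN2, CASQ2 and LDB3. DDX3Y moved with the anthracycline set, so sex cannot be told apart from drug there, and DMD lies on the X chromosome. The summed levels of some marker lists also moved with this set, though not most of their genes. Fibroblast markers (8 of 8 matched) summed to 4616 to 7179 CPM in DOX and MYO, 1572 to 3934 CPM in Hyper and Control and 10730 to 12395 CPM in RemoLV. Of these 8, COL1A1, COL1A2 and COL3A1 lay higher in DOX and MYO than in Hyper and Control without overlap, while DCN, LUM, POSTN, TCF21 and PDGFRA overlapped, with PDGFRA at a median of 11.6 CPM in DOX, 6.93 in MYO, 7.49 in Hyper and 22.6 in Control. Adipocyte markers (4 of 4 matched) summed to 65.1 to 123 CPM in DOX and MYO, 133 to 175 CPM in Hyper and Control and 139 to 270.1 CPM in RemoLV. None of the 4 separated DOX and MYO from Hyper and Control by itself, and FABP4 was at 63.0 to 122 CPM against 112 to 175 CPM. Markers of ventricular cardiomyocytes (5 of 5) summed to 44968 to 59472, 50048 to 74544 and 25022 to 29133 CPM in the order DOX and MYO, Hyper and Control, and RemoLV. The part of each in the DMD difference was not tested. The 653 genes with a RefSeq transcript of at least 10000 bases had a median log2 fold change of -0.10 in the anthracycline comparison (quartiles -0.45 and 0.27), against 0.03 for the 12061 genes with a length. In the RemoLV comparison the same medians were 0.01 and 0.03. The longest transcript of DMD is 16114 bases, and the part of length in its difference was not tested.

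UTRN, the relative of dystrophin, was highest in the libraries labelled RemoLV. It stood at 89.7, 88.3, 90.1, 86.7 and 95 CPM in the DOX libraries, and at 90.2, 81.9, 93.0, 94.4 and 101 CPM in the MYO libraries. Hyper libraries held 118, 101 and 87.6 CPM, and Control libraries 87.0, 110.2 and 107 CPM. The libraries labelled RemoLV, at 139, 145 and 121 CPM, were above all 16 others. UTRN was 1.32-fold higher in them than in Hyper and Control (log2 fold change 0.41 ± 0.10 SE, adjusted p = 0.00291) and 1.48-fold higher than in DOX and MYO (0.57 ± 0.09, adjusted p = 0.000117), both by edgeR. In DOX and MYO against Hyper and Control, UTRN did not pass the test (-0.16, 95% confidence interval -0.32 to -0.01, adjusted p = 0.0728), but was called lower without Hyper replicate 3 (-0.22, adjusted p = 0.0218), without Control replicate 1 (-0.22, adjusted p = 0.0248) and by DESeq2 (-0.18, adjusted p = 0.0413). Its sign turned under scaling by total counts only (0.18, adjusted p = 0.145), where the RemoLV difference from Hyper and Control was 0.82 (adjusted p = 5.71e-05). The atrial markers moved with the UTRN difference: 5 of 6 were matched, and their summed level was 9581 to 12905 CPM in the RemoLV libraries and at most 2463 CPM in any other. Of the fibroblast sum given above, the collagens carried most: COL3A1 was at 5963 to 6941 CPM in RemoLV and at most 3417 CPM elsewhere. DCN was at 799 to 917 CPM and at most 571 CPM elsewhere, and PDGFRA at 26.6 to 27.8 CPM and at most 24.8 CPM elsewhere. In contrast, LUM (122 to 144 CPM), TCF21 (8.56 to 14.4 CPM) and POSTN (48.4 to 220 CPM) overlapped the other groups. COL1A1 (1834 to 2052 CPM) overlapped DOX, which reached 1840 CPM. Endothelial markers (6 of 6) summed to 697 to 749 CPM against at least 765 CPM elsewhere, a sum led by PECAM1 and VWF, while KDR, at 71.5 to 83.7 CPM in RemoLV, was above Hyper (41.2 to 52.4 CPM) and overlapped DOX, MYO and Control. Their part in the UTRN level was not tested.

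DAG1, the precursor of both dystroglycans, was called higher in the anthracycline libraries. It was measured at 219.9, 229.9, 283, 234 and 259 CPM in DOX and at 249, 277, 254, 272 and 246 CPM in MYO. Hyper libraries held 221, 228 and 220.3 CPM, Control libraries 175, 229 and 179 CPM, and those labelled RemoLV 233, 214 and 237 CPM. Of the 10 anthracycline libraries, 9 were above all 6 Hyper and Control libraries. The difference was 1.21-fold (log2 fold change 0.28 ± 0.07 SE, adjusted p = 0.00411, edgeR), and 0.60 on the log2 scale with total counts only (adjusted p = 0.000122). In the RemoLV libraries DAG1 did not pass the test against Hyper and Control (0.13, 95% confidence interval -0.07 to 0.34, adjusted p = 0.285), though it did with total counts only (0.54, adjusted p = 0.0035).

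The sarcoglycans did not move as a block. SGCA (alpha-sarcoglycan, made almost only in striated muscle) was at 72.2, 87.0, 87.7, 80.1 and 90.3 CPM in DOX, and at 89.0, 96.8, 79.3, 91.2 and 93.9 CPM in MYO. The RemoLV libraries held 70.0, 79.5 and 84.9 CPM, the Hyper libraries 79.4, 103 and 105 CPM and the Control libraries 89.6, 72.1 and 71.4 CPM. The ranges of neighbouring groups overlapped, and SGCA passed the test in none of the 9 comparisons. With total counts only it was called higher in DOX and MYO than in Hyper and Control (0.35, adjusted p = 0.00525), and against Control in DOX (0.54, adjusted p = 0.00447), MYO (0.64, adjusted p = 0.00121) and RemoLV (0.52, adjusted p = 0.00871). SGCD (delta-sarcoglycan, whose loss causes cardiomyopathy in hamsters and people) was highest in the Hyper libraries, at 74.8, 63.9 and 61.1 CPM. Control libraries held 47.9, 62.3 and 48.5 CPM and RemoLV libraries 53.6, 39.3 and 41.4 CPM. Its DOX libraries held 37.9, 48.0, 46.9, 45.5 and 51.8 CPM and its MYO libraries 39.5, 44.3, 59.2, 53.5 and 46.6 CPM, so that 6 of these 10 lay below all Hyper and Control libraries. SGCD was lower in DOX and MYO than in Hyper and Control (log2 fold change -0.33 ± 0.10 SE, adjusted p = 0.0114, edgeR) and in the RemoLV libraries (-0.41 ± 0.14, adjusted p = 0.024), but under scaling by total counts only both differences were near 0 and turned sign (0.0063 and 0.0047). Without RemoLV replicate 2 the second was -0.32 (adjusted p = 0.121), without RemoLV replicate 3 it was -0.36 (adjusted p = 0.098), and with upper-quartile factors -0.30 (adjusted p = 0.0991). Against the cardiomyocyte marker sum, SGCD had a median of 1.64 CPM per 1000 CPM in DOX and MYO (1.02 to 1.81) and 1.65 in Hyper and Control (1.18 to 2.24), with overlap.

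Besides the members, SSPN and SGCE of the sarcoglycan and sarcospan list were called higher in RemoLV. SSPN (sarcospan, a small membrane protein) was at 246 to 277 CPM in the RemoLV libraries and at 129.9 to 226 CPM in the others. SSPN was higher in RemoLV than in Hyper and Control (0.60 ± 0.16, adjusted p = 0.00465) and did not pass the test in DOX and MYO (-0.08, adjusted p = 0.605). SGCE (epsilon-sarcoglycan, found in many tissues) was likewise higher in RemoLV (0.86 ± 0.24, adjusted p = 0.00648) and was -0.10 in DOX and MYO (adjusted p = 0.656).

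DTNA (alpha-dystrobrevin, which binds dystrophin and the syntrophins) split the libraries as DMD did, with smaller differences. It was at 87.9, 87.4, 76.9, 80.2 and 111 CPM in DOX and at 97.8, 81.6, 99.9, 96.0 and 75 CPM in MYO. The RemoLV libraries held 102, 74.3 and 106 CPM, the Hyper libraries 152, 121 and 136 CPM, and the Control libraries 149, 117 and 164 CPM. As for DMD, all 13 DOX, MYO and RemoLV libraries lay below all 6 Hyper and Control libraries. DTNA was at 0.640 times the Hyper and Control level in DOX and MYO (log2 fold change -0.64 ± 0.10 SE, adjusted p = 6.36e-05, edgeR) and at 0.675 times in RemoLV (-0.57 ± 0.15, adjusted p = 0.00416). Under scaling by total counts only these were -0.29 (adjusted p = 0.0317) and -0.12 (adjusted p = 0.502). Against the cardiomyocyte marker sum, DTNA was 2.36 to 3.61 CPM per 1000 CPM in DOX and MYO and 3.21 to 4.55 in Hyper and Control, with overlap.

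In all, DOX and MYO against Hyper and Control gave 3 members lower (DMD, DTNA and SGCD), 1 higher (DAG1) and 2 that did not pass the test. Across all genes, 25% were called lower and 25.8% higher in this comparison, and no member reached an absolute log2 fold change of 2. RemoLV against Hyper and Control gave the same 3 lower, UTRN higher and 2 not called, beside 23.7% of all genes lower and 24.1% higher. Both comparisons share the Hyper and Control libraries. Without Control replicate 2 the calls were the same, with DMD at -1.02 and -0.76, DTNA at -0.71 and -0.64, SGCD at -0.26 and -0.35, DAG1 at 0.34 in the first and UTRN at 0.43 in the second. Their median log2 fold change over the 6 members was -0.25 and -0.28, against 0.03 and 0.02 over all genes. RemoLV against DOX and MYO called only UTRN, higher, beside 17% of all genes higher and 16.8% lower. DMD was 0.27 ± 0.11 there (adjusted p = 0.0688) and passed the threshold in 5 of 28 alternatives, the removal of MYO replicate 1 among them (0.30, adjusted p = 0.0453).

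**Figure D2:**
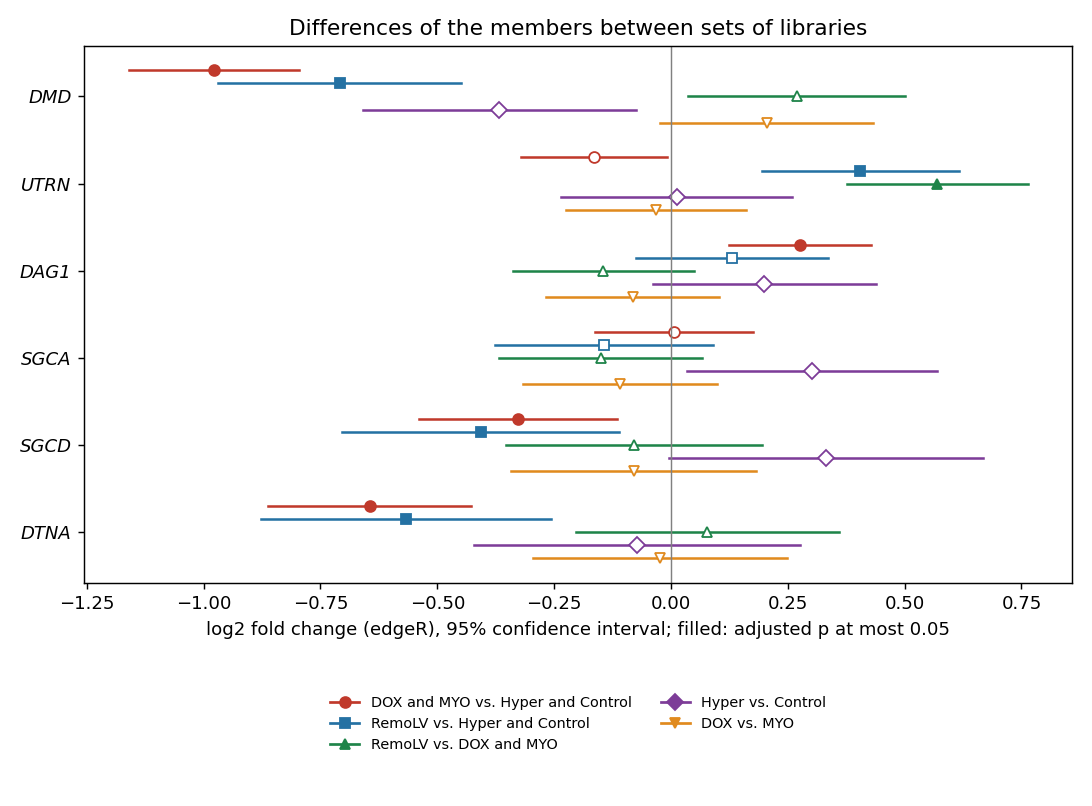
Log2 fold change of each member (edgeR quasi-likelihood fit of 19 libraries, points) with its 95% confidence interval (lines) in 5 comparisons, filled where the adjusted p was at most 0.05. DMD, SGCD and DTNA lay below 0 for both DOX and MYO and RemoLV against Hyper and Control, UTRN lay above 0 for RemoLV against either set, and no symbol is filled for Hyper vs. Control or DOX vs. MYO.

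Each model was also compared with the 3 Control libraries. In DOX vs. Control, DMD was lower (log2 fold change -1.06 ± 0.12 SE, adjusted p = 5.59e-06), as was DTNA (-0.69 ± 0.15, adjusted p = 0.00123), and DAG1 was higher (0.33 ± 0.10, adjusted p = 0.0146, edgeR throughout). This DAG1 call was not kept in 3 of the alternatives with these labels: without Control replicate 1 it was 0.26 (adjusted p = 0.087), without replicate 3 it was 0.28 (adjusted p = 0.0829), and with only the DOX and Control libraries in the fit it was 0.33 (adjusted p = 0.079). MYO vs. Control gave the same calls, with DMD at -1.26 ± 0.12 (adjusted p = 8.37e-07), DTNA at -0.67 ± 0.15 (adjusted p = 0.00157) and DAG1 at 0.42 ± 0.10 (adjusted p = 0.00369). RemoLV vs. Control gave DMD lower (-0.89 ± 0.14, adjusted p = 6.61e-05), DTNA lower (-0.60 ± 0.17, adjusted p = 0.00654) and UTRN higher (0.41 ± 0.12, adjusted p = 0.00814), the last not called without Control replicate 1 (0.31, adjusted p = 0.0587). Without Control replicate 2 DMD was -1.15, -1.35 and -0.99 in DOX, MYO and RemoLV, and DAG1 was also called in RemoLV (0.36, adjusted p = 0.0106). With total counts only DMD was -0.62, -0.82 and -0.36 in DOX, MYO and RemoLV (adjusted p = 0.000548, 4.94e-05 and 0.0338), DTNA was called against Control in none of the 3 models (-0.24, -0.21 and -0.064), SGCA was called in all 3 as given above, and DAG1 was also called in RemoLV (0.71, adjusted p = 0.00187), as it was with upper-quartile factors (0.35, adjusted p = 0.0272). The background shares of all genes called lower and higher were 21.1% and 21% for DOX, 21.7% and 20.7% for MYO, and 24% and 23.1% for RemoLV.

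With the names of the expression table the Control group would hold the libraries with atrial markers, and these results change. DMD in DOX vs. Control was then -0.17 (adjusted p = 0.321), in MYO vs. Control -0.37 (adjusted p = 0.034) and in RemoLV vs. Control 0.89 (adjusted p = 6.96e-05). UTRN was lower in DOX vs. Control (-0.60, adjusted p = 0.000279) and MYO vs. Control (-0.54, adjusted p = 0.000747), and DTNA and DAG1 were called in neither. The DMD group means under those names were 162 ± 20.6 CPM for Control and 301 ± 48.4 CPM for RemoLV (SD, n = 3 each), the reverse of the file labels.

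In Hyper vs. Control no member passed the threshold, nor did any of the 13552 genes by edgeR or limma-voom (0% called higher and 0% lower), while 312 genes did by DESeq2. At an unadjusted p under 0.05 there were 2418 genes, and 2 of them were members: DMD at -0.37 (95% confidence interval -0.66 to -0.08, adjusted p = 0.196) and SGCA at 0.30 (0.03 to 0.57, adjusted p = 0.232). Without Control replicate 2, DMD (-0.46, adjusted p = 0.0403) and DAG1 (0.33, adjusted p = 0.0421) were called, beside 2538 of all 13792 genes then tested. Without Hyper replicate 1, 773 of 13795 genes but no member were called, so the count of 0 genes rests on single libraries. DMD ranges of the 2 groups did not overlap, since the highest Hyper library was at 263 CPM and the lowest Control library at 264 CPM. Under the table names, 4 members were called in Hyper vs. Control, with DMD (0.53), SGCD (0.57) and DTNA (0.53) higher and UTRN lower (-0.40), beside 4856 of all 13552 genes. RemoLV vs. Hyper called DMD (-0.53 ± 0.14, adjusted p = 0.00683), SGCD (-0.57 ± 0.16, adjusted p = 0.0097) and DTNA (-0.53 ± 0.17, adjusted p = 0.0189) lower and UTRN higher (0.40 ± 0.12, adjusted p = 0.0132), beside 18.6% of all genes lower and 17% higher. Without RemoLV replicate 2, DTNA (-0.39, adjusted p = 0.103) and UTRN (0.34, adjusted p = 0.0607) were not called. The same held for DTNA without Hyper replicate 1 (-0.45, adjusted p = 0.0745) and UTRN without Hyper replicate 3 (0.29, adjusted p = 0.0738) or with only these 2 groups in the fit (0.40, adjusted p = 0.0629). SGCA was called lower without Hyper replicate 1 (-0.42, adjusted p = 0.0186). With total counts only DMD was -0.17 here (adjusted p = 0.338), and UTRN alone was called.

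Doxorubicin and its liposomal form were given at the same dose and time and could be compared directly, over 6 members and 13552 genes in 1 adjustment. No member and no other gene was called by edgeR or limma-voom in DOX vs. MYO (0% in either direction), 2 genes were called by DESeq2, and 960 genes but no member had an unadjusted p under 0.05. The widest interval was that of DTNA, -0.29 to 0.25 on the log2 scale, and the largest difference that of DMD, 0.20 with an interval of -0.02 to 0.43 (adjusted p = 0.718). That of SGCD ran from -0.34 to 0.18. Under the table names, which exchange DOX replicate 5 and MYO replicate 1, no member was called either, and the largest difference was that of SGCD (-0.23, adjusted p = 0.631), followed by that of DMD (0.20, adjusted p = 0.662).

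Ratios of counts within a library do not depend on how libraries are scaled, and are compared between libraries only, since the genes differ in length. The ratio of UTRN to DMD was 0.301 to 0.450 in the 6 Hyper and Control libraries, 0.558 to 0.840 in the 10 DOX and MYO libraries, and 0.656 to 0.976 in the 3 labelled RemoLV. The first set did not overlap with the other 2, and the latter overlapped each other. Its mean was 0.390 ± 0.068 (SD, n = 6), 0.683 ± 0.0978 (SD, n = 10) and 0.846 ± 0.168 (SD, n = 3). DAG1 to DMD ran from 0.504 to 1.12 in Hyper and Control, from 1.29 to 1.63 in RemoLV and from 1.45 to 2.34 in DOX and MYO. DTNA to DMD overlapped between the sets (0.443 to 0.687, 0.464 to 0.718 and 0.537 to 0.903 in the same order), as did SGCD to SGCA, with means of 0.704 ± 0.163, 0.583 ± 0.159 and 0.548 ± 0.0848. The ratio to SGCA was added after the data had been seen, since a ratio of SGCD to SGCB could not be formed.

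**Figure D3:**
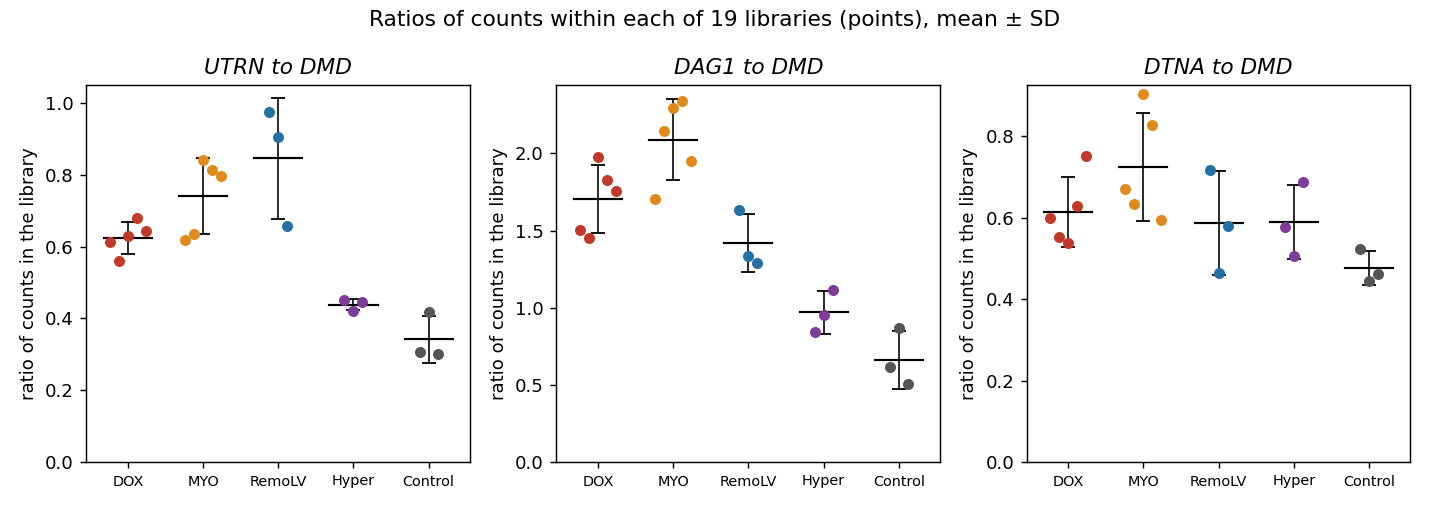
Ratios of counts of UTRN to DMD, DAG1 to DMD and DTNA to DMD, 1 point per library, with the mean (line) and SD (bars) of each group. The UTRN to DMD and DAG1 to DMD ratios of all Hyper and Control libraries lay below those of the other 13 libraries, and the DTNA to DMD ratios of the sets overlapped.

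Genes tied to the complex were described from 7 lists of 50 genes, of which 38 were matched and tested. Across the lists 15 genes were higher and 8 lower in DOX and MYO against Hyper and Control, and 17 were higher and 9 lower in RemoLV. Of all genes, 25.8% were called higher and 25% lower in the first comparison and 24.1% and 23.7% in the second, the background for each list below. With total counts only these became 23 and 3, and 25 and 5. All genes called were then 7404 and 7286 of 13552, against 6872 and 6480 with TMM. Scaling by total counts only moved the median of all genes from 0.03 to 0.37 in the first comparison and from 0.02 to 0.44 in the second, so the counts below are relative to the median gene. Median log2 fold changes of the 38 genes were 0.17 and 0.21.

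On the inner face, SNTB2 (beta-2-syntrophin, an adaptor on dystrophin and utrophin) was lower in both comparisons, at -1.79 ± 0.15 in DOX and MYO (adjusted p = 5.15e-08) and -1.71 ± 0.23 in RemoLV (adjusted p = 9.88e-06), a larger change than that of any member. DTNB (beta-dystrobrevin) was higher in both (0.51 ± 0.11, adjusted p = 0.00133, and 1.04 ± 0.15, adjusted p = 1.87e-05), against the direction of DTNA. SNTB1 (beta-1-syntrophin) was 0.82 in RemoLV (adjusted p = 0.00326) and -0.09 in DOX and MYO (adjusted p = 0.647), and was named after its values were seen. Of 5 tested membrane partners, 3 were lower and 1 higher in DOX and MYO, and 3 lower and 2 higher in RemoLV (of all genes, 25% were lower and 25.8% higher in the first comparison and 23.7% and 24.1% in the second). Under total counts only 1 was lower and 1 higher in DOX and MYO, and 2 lower and 2 higher in RemoLV. With a replicate block, a term for the number in the label, 1 was lower and none higher in DOX and MYO. ANK3 (ankyrin-G, a membrane adaptor that binds dystrophin) was lower in both (-1.03 ± 0.11, adjusted p = 1.17e-06, and -1.81 ± 0.17, adjusted p = 2.63e-07). ANK2 (ankyrin-B) was -0.45 (adjusted p = 0.00603) and 0.66 (adjusted p = 0.0036), the first not called with total counts only (-0.097, adjusted p = 0.456). PGM5 (aciculin, which binds dystrophin and utrophin) was 1.66 ± 0.15 in RemoLV (adjusted p = 1.35e-07) and -0.28 in DOX and MYO, where its sign turned under scaling by total counts only (0.034). In DOX and MYO it was also not called with upper-quartile factors (-0.25, adjusted p = 0.0965) or by limma-voom (-0.27, adjusted p = 0.0559).

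On the outer face, 7 of 9 ligand genes of dystroglycan were higher and 1 lower in DOX and MYO, and 5 were higher and 1 lower in RemoLV, against 25.8% and 25% of all genes in the first and 24.1% and 23.7% in the second comparison. Scaling by total counts only gave 8 and 7 higher. With the size factors of DESeq2 (RLE) LAMA5 was not called in DOX and MYO (adjusted p = 0.0533), which left 6 higher. AGRN (agrin) was 1.10 ± 0.12 in DOX and MYO (adjusted p = 1.2e-06) and 0.25 in RemoLV (adjusted p = 0.203), where it was called with total counts only (0.66, adjusted p = 0.00474). LAMA4 (laminin alpha-4, of vessel and muscle basement membranes) was 0.46 (adjusted p = 5.92e-05) and 0.42 (adjusted p = 0.00175). BGN (biglycan) was 1.87 ± 0.23 in RemoLV (adjusted p = 4.42e-06) and 0.77 in DOX and MYO (adjusted p = 0.00185), and LAMB2 was 0.75 and 0.42 (adjusted p = 0.000189 and 0.00248). LAMA2, the laminin chain of the muscle basement membrane, was the 1 lower gene in DOX and MYO (-0.86, adjusted p = 0.00337), and LAMA5 the 1 lower gene in RemoLV (-1.0, adjusted p = 0.000267), both named after their values were seen. The fibroblast marker sums given above did not overlap between these sets, in DOX and MYO through the 3 collagens only, and their part in the ligand levels was not tested.

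Dystroglycan binds laminin through sugars that a chain of enzymes adds. Of 10 tested genes of this chain, 4 were higher and 1 lower in DOX and MYO, and 5 were higher and none lower in RemoLV, against the same background of 25.8% and 25%, and 24.1% and 23.7%. Scaling by total counts only gave 8 and 7 higher and none lower, and with RLE size factors 4 were higher in RemoLV. POMT1, which adds the first mannose, was higher in both (0.77 ± 0.11, adjusted p = 1.78e-05, and 0.65 ± 0.14, adjusted p = 0.00111). B4GAT1, which primes the laminin-binding chain, was 0.84 ± 0.14 in RemoLV (adjusted p = 9.06e-05) and 0.17 in DOX and MYO (adjusted p = 0.179). DPM1, a subunit of the dolichol mannose synthase, was lower in DOX and MYO (-0.50, adjusted p = 0.000136), though not under scaling by total counts only (-0.16, adjusted p = 0.279).

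Among 6 genes of the integrin anchorage, a second link between matrix and actin, 1 was lower and 2 higher in DOX and MYO and 3 were lower and none higher in RemoLV, where 25% and 25.8% of all genes were lower and higher in the first comparison and 23.7% and 24.1% in the second. None was lower in either with total counts only, and 5 were higher in DOX and MYO and 3 in RemoLV. With RLE size factors ITGA7 was not called in DOX and MYO (adjusted p = 0.0601), which left 1 higher. TLN2 (talin-2) was lower in both (-0.29, adjusted p = 0.00877, and -0.56, adjusted p = 0.000925), TLN1 was 0.35 in DOX and MYO (adjusted p = 0.0171), and ILK was -0.47 in RemoLV (adjusted p = 0.000737). With total counts only TLN2 was 0.06 and -0.12 and ILK in RemoLV -0.04, none of them called, while ILK in DOX and MYO was called (0.52, adjusted p = 3.43e-05). Of 3 tested repair genes, DYSF (dysferlin, which reseals torn membrane) was lower in both, at -0.55 ± 0.13 (adjusted p = 0.0023) and -1.83 ± 0.21 (adjusted p = 1.51e-06), the first not called with total counts only (-0.20, adjusted p = 0.154). TRIM72 (mitsugumin-53, a muscle repair protein) was 2.81 ± 0.54 in RemoLV (adjusted p = 0.000346) and 0.76 ± 0.50 in DOX and MYO (adjusted p = 0.209), and ANXA6 passed in neither (-0.13 and -0.04).

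**Figure D4:**
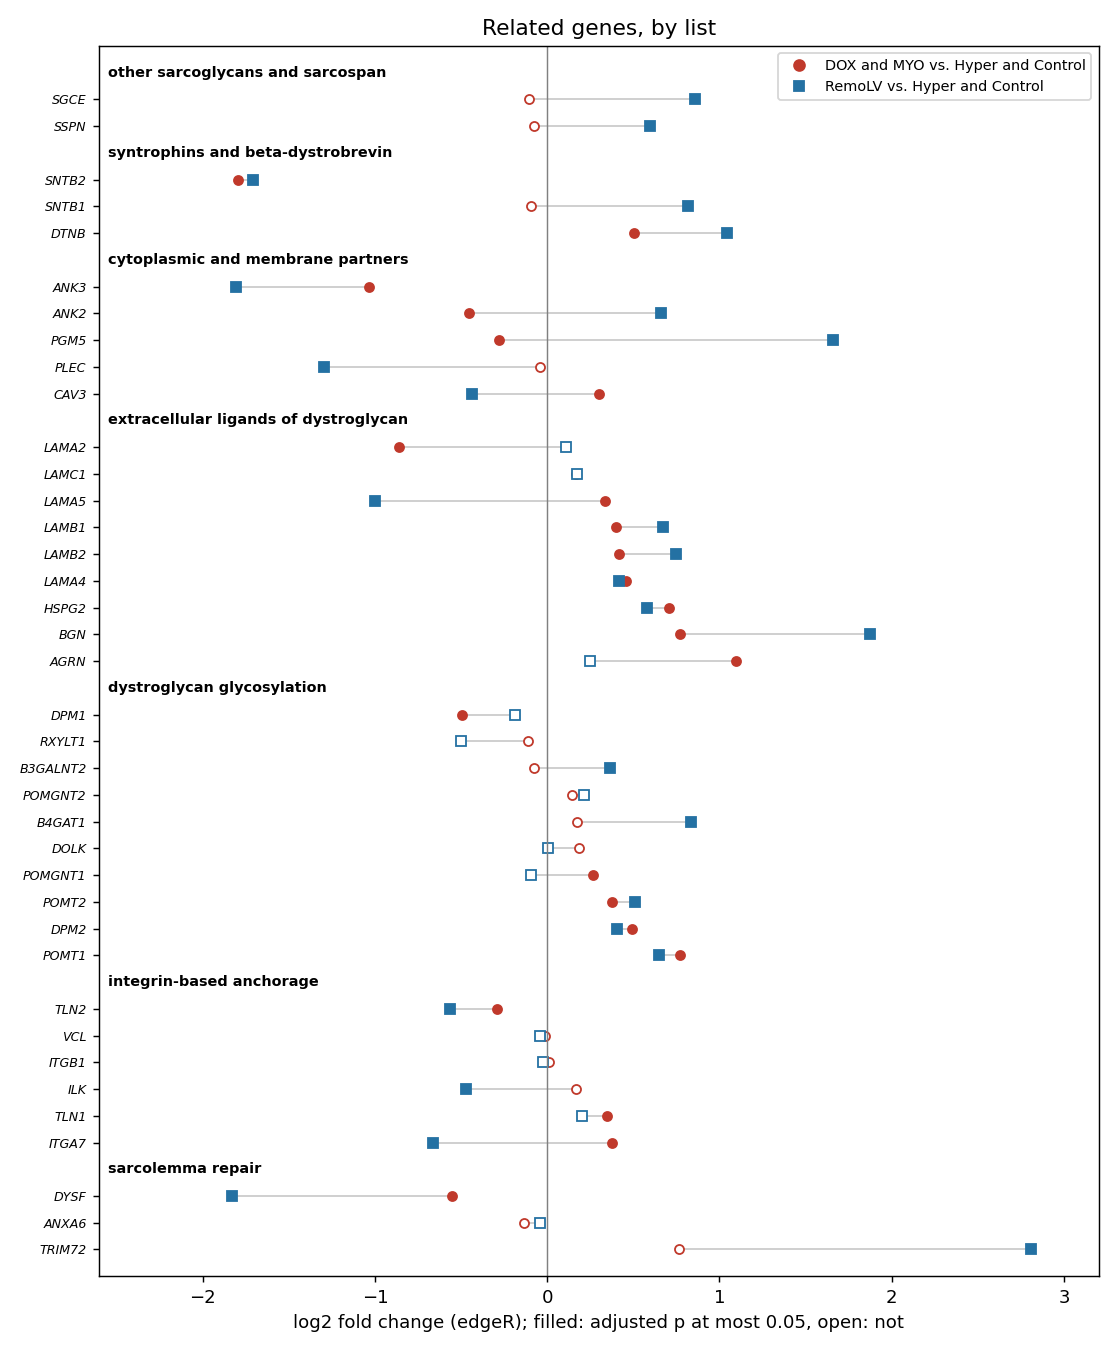
Log2 fold change (edgeR) of the 38 tested genes of the 7 lists in DOX and MYO (circles) and RemoLV (squares) against the shared Hyper and Control libraries, filled where the adjusted p was at most 0.05. SNTB2, ANK3, TLN2 and DYSF were filled on the left in both comparisons, whereas PGM5 and ANK2 were among those filled on opposite sides.

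The genes most alike to each member were found by the mean absolute difference of centred log2 CPM over the 19 libraries. SPAG9 (0.096) and EIF1AX (0.11) were nearest to DMD, NDFIP1 (0.076) and CUL4B (0.086) to UTRN, and USP30 (0.081) and ARFGAP2 (0.087) to DAG1. BCKDHA (0.094) and STYXL1 (0.096) were nearest to SGCA, SNW1 (0.115) and SFXN4 (0.117) to SGCD, and ATP5PF and HIBCH (both 0.123) to DTNA. For scale, DMD itself deviated from its mean by 0.40 on average and DAG1 by 0.13, so that a small difference says less for DAG1 than for DMD.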

How the data were processed

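RNA-seq counts from 19 pigs (1 library each) were used. Per the study's methods and processing notes, the authors aligned poly(A)-selected read pairs with STAR (build Sscrofa11.1) and made strand-specific counts of Ensembl genes with HTSeq 0.11.1, and the deposited count files hold them unscaled. The expression columns of the annotated table that the authors deposited are log2 values after scaling and were used for gene symbols and to trace column names only. Its fold changes and adjusted p-values are the comparisons of the authors and were not used.

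In R 4.3.3, 13552 of 25879 genes were kept by filterByExpr, scaled by TMM and tested with the edgeR 4.0.16 quasi-likelihood test with Benjamini-Hochberg adjustment over all of them, in 1 model of the 5 groups, called at an adjusted p of at most 0.05. CPM are edgeR's counts per mega-count of the TMM-scaled library size. Confidence intervals come from the same fit. The procedure was tested on simulated data. Lengths and sequences are from RefSeq (Sscrofa11.1). Alternatives used DESeq2 1.42.0, limma 3.58.1 (voom), other scalings and filters, and each library left out. P-values measure the spread between pigs. Replicate numbers were checked as a pairing by correlating deviations from group means: all 3 DOX and Control pairs were over 0.1 (0.113 to 0.197), which no other pair of groups reached. Members and lists were chosen with earlier results of these data known. Named were the members, SSPN, the 2 genes of each list with the smallest adjusted p in each of the 2 set comparisons with Hyper and Control, and the 2 genes most alike to each member. Outside this rule, SNTB1, LAMA2 and LAMA5 were named after their values were seen, and ITGA7 and CAV3 where a call changed. Some related genes and 1 upstream sequence are not reported here and were left out of the lists. No 2 libraries agreed within sampling noise (lowest mean chi-square per gene 12, over 171 pairs).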

Additional observations from a re-analysis of the deposited data

How the results depend on the processing

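Each of 54 member results was recomputed under alternatives. Of 1596 recomputed values, 1537 kept their side of the threshold with no change of sign in a called value. Changes of sign where neither value was called count among the 1537. An example is UTRN in DOX and MYO vs. Hyper and Control with total counts only (-0.16 to 0.18). The changes of sign below are given only where a value was called. With total counts only, 1 member was called in RemoLV vs. Hyper, 2 in RemoLV vs. DOX and MYO and 2 in RemoLV vs. Hyper and Control, beside 5085, 3882 and 7286 of 13552 genes, and SGCD turned to 0.0063 in DOX and MYO vs. Hyper and Control and to 0.0047 in RemoLV vs. Hyper and Control. In RemoLV vs. DOX and MYO 2 members were called with upper-quartile factors, beside 4619 of 13552 genes. With at least 10 counts in every library 2 were called there, beside 3845 of 11240 genes. When only the groups compared were fitted 2 were called, beside 5284 of 13244 genes. With the table names, 1 member was called in DOX vs. Control, 4 in Hyper vs. Control and 0 in RemoLV vs. Hyper (edgeR), beside 4008, 4856 and 0 of 13552 genes, and DMD, UTRN and DTNA turned sign in RemoLV vs. Control (0.89, -0.41 and 0.60), Hyper vs. Control (0.53, -0.40 and 0.53) and RemoLV vs. Hyper (0.37, -0.012 and 0.072). With 1 library left out, between 2 and 4 members were called in RemoLV vs. Hyper, beside 3889 to 5427 of all genes. Between 1 and 2 were called in RemoLV vs. DOX and MYO, beside 3248 to 5217 genes. In Hyper vs. Control 0 to 2 were called, beside 0 to 2538 genes. These fits tested 13520 to 13802 genes. Without the 3 libraries labelled RemoLV in the fit, no call changed. A replicate block gave 4 called members in DOX and MYO vs. Hyper and Control, beside 5857 of 13552 genes against 6872 without it. The block changed none of the 54 calls. With it the related genes ANK2, PGM5, TLN2 and CAV3 were not called in that comparison (adjusted p = 0.0542, 0.12, 0.0575 and 0.085). This left 14 higher and 5 lower of 38. Correlations of the deviations of libraries with the same number ran from -0.23 to 0.20 over 32 pairs. Those of DOX with Control were over 0.1 in all 3 pairs (0.197, 0.138 and 0.113), and no other pair of groups had this. In DOX vs. Control the block gave 4793 called genes against 5704, with DMD at -1.02 (adjusted p = 0.000206), DTNA at -0.69 (adjusted p = 0.00326) and DAG1 at 0.33 (adjusted p = 0.0405). Each member had at least 464 counts in every library. Library totals ran from 17458641 to 20370209 in Control and from 10147011 to 14851481 in MYO, and the part of depth was not tested.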
